A study of Mus musculus with 4 samples.

Results

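Keratins 5, 7, 8, 14, 15, 17, 18, 19 and 23 and the transcription factor Trp63 were followed through the cell classes of the newborn mouse oviduct and uterus. The 10 genes were taken by their symbols (Krt5, Krt7, Krt8, Krt14, Krt15, Krt17, Krt18, Krt19, Krt23 and Trp63) from the 31053 genes of the matrices, and each symbol was found. The samples were 4 single-cell RNA libraries, 2 of the oviduct and 2 of the uterus, from untreated wild-type CD1 mice on postnatal day 3. The replicates of each organ were pools of 3 and of 4 neonates, and both organs came from the same neonates. The labels give the cells as mesenchymal and epithelial. They name no other cell type and no sort. Each organ therefore has n = 2, and a p-value measures the spread between 2 pools per organ.

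Keratins are the intermediate filament proteins of epithelia, and a filament is built from pairs of 1 acidic (type I) and 1 basic (type II) keratin. Krt8 and Krt18 are the pair of simple, single-layered epithelia, often joined by Krt7 and Krt19, whereas Krt5 and Krt14 are the pair of the basal layer of stratified epithelia, where Krt15 and Krt17 also occur. Trp63 (p63) is a master regulator of stratified and basal epithelium and in the female tract is known for the vaginal and cervical epithelium. The oviduct and uterus are lined by a simple epithelium and covered by mesothelium, a flat sheet that also carries keratins.

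In the GENCODE M21 annotation of GRCm38 all 10 are protein-coding genes, in 3 chromosomal groups. The type II genes lie on chromosome 15: Krt5 at chr15:101707070-101712898 and Krt8 at chr15:101996698-102004482 on the minus strand, and Krt7 at chr15:101411043-101430313 on the plus strand. The type I gene Krt18 lies beside Krt8, at chr15:102028180-102032027 on the plus strand. The other type I genes lie on the minus strand of chromosome 11: Krt14 at chr11:100203162-100207548, Krt15 at chr11:100131758-100135928, Krt17 at chr11:100256217-100261029, Krt19 at chr11:100140810-100148665 and Krt23 at chr11:99477974-99493137. Trp63 lies at chr16:25683763-25892102 on the plus strand.

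The windows directly upstream of 3 genes are shown because Krt18, Krt5 and Krt23 stood for 3 different patterns below: a keratin found in several classes, one nearly restricted to epithelium and one nearly restricted to blood endothelium. The sequences are RefSeq promoter windows of GRCm38.p6, cut before the 5′ end of the GENCODE gene and written on the gene's strand, with capitals marking every match to a motif searched.
Krt18, chr15:102027966-102028179, plus strand: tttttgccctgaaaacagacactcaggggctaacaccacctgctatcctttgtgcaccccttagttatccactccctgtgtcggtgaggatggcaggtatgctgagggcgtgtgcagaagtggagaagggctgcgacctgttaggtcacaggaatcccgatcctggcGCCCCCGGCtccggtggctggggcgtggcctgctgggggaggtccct
Krt5, chr15:101712906-101713155, minus strand: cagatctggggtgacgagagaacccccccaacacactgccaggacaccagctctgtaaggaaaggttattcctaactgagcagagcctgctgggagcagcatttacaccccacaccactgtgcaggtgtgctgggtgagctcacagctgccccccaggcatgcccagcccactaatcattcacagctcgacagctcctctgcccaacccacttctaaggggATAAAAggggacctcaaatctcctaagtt
Krt23, chr11:99493138-99493370, minus strand: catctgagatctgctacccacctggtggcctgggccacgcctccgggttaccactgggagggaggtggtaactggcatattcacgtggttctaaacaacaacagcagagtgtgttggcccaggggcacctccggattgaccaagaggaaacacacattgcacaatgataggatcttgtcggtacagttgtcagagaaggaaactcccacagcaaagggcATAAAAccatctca
The motifs were searched on both strands of the whole window of 250 bases before and 50 bases from the start site: TATAAA, in 13.6% of all 32851 windows of this length, GGGCGG in 35.7%, TGANTCA in 7.81%, GCCNNNGGC in 16.6%, CCAAT in 37.4% and ATAAAA in 18.5%. The last was added after the windows had been read, and it overlaps the first in some sequences. ATAAAA began 29 bases before the RefSeq start site in Krt5 and 31 bases before it in Krt23. Krt18 held a match to GCCNNNGGC 83 bases before its start site and no other match. These letters are a description of the windows and no evidence that a factor binds there.

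The libraries held 61117726 to 114419939 UMIs (unique molecular identifiers, 1 per captured RNA molecule), and 3926 to 6537 cells per library were kept. Any pair of libraries shared 8 to 15 barcodes. Cells were clustered without any keratin gene or Trp63, and classes were named from other markers, so the names are by resemblance ("epithelium-like") and are shortened below. The epithelium held 140 and 330 oviduct cells and 73 and 133 uterine cells, by library, and all 12 of its markers had UMIs in every library, with a summed level of 2987 to 3378 CPM (UMIs of a gene per 1000000 UMIs of the class). The mesothelium held 516, 552, 84 and 63 cells, with 7 of 7 own markers at 1878 to 2058 CPM. It also carried mesenchyme markers at 6251 to 10704 CPM. In the epithelium the mesothelial markers summed to 62.2 to 79 CPM. Epithelial cells differed in depth, with medians of 21808 and 5078 UMIs in oviduct libraries, against 1850 and 1432 in uterine ones.

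Levels by class are given first, as a description with no test, because the same cells were clustered. The 10 genes fell into 5 patterns. Krt8, Krt18, Krt19, Krt7, Krt15 and Krt17 were found in both epithelium and mesothelium. Krt14 was found almost wholly in the mesothelium and Krt5 almost wholly in the epithelium. Krt23 was found in blood endothelium, and Trp63 was sparse everywhere.

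**Figure D1:**
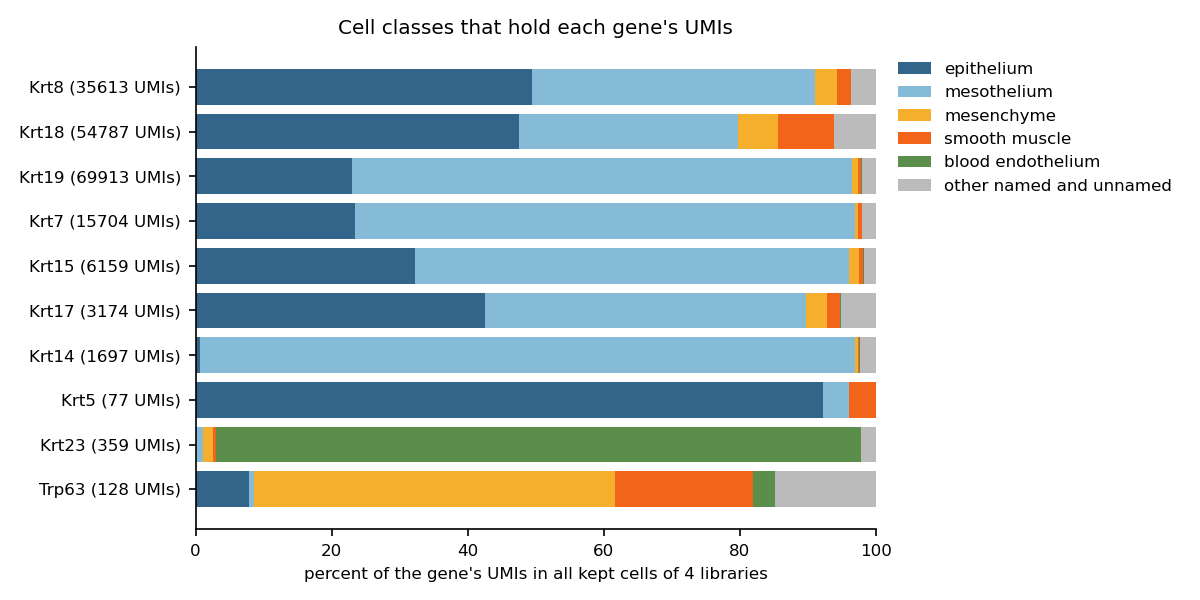
Share of each gene's UMIs (horizontal axis, percent of the UMIs in all kept cells of the 4 libraries) that lay in each cell class (colours). Mesothelium held 96.3% of the UMIs of Krt14, epithelium 92.2% of those of Krt5 and blood endothelium 94.7% of those of Krt23, whereas the largest share of Trp63, 53.1%, lay in mesenchyme.

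Krt8, the type II keratin of simple epithelia, stood at 911 and 784 CPM in the oviduct epithelium and at 1305 and 1132 CPM in the uterine epithelium. In the mesothelium it stood at 412 and 423 CPM in the oviduct and 390 and 365 CPM in the uterus. The epithelial libraries were all above the mesothelial ones, and outside these 2 sheets and the erythroid class no library of a named class exceeded 24.2 CPM. Krt18, the type I partner of Krt8, stood at 1555 and 1191 CPM in the oviduct epithelium and 1340 and 1253 CPM in the uterine epithelium. It stood at 528, 480, 290 and 349 CPM in the mesothelium of the oviduct and uterine libraries. For Krt18 as well, the ranges of epithelium and mesothelium did not overlap.

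Krt19, a type I keratin without a tail domain, and Krt7, a type II keratin of ducts and simple epithelia, had the opposite order, and their mean level was highest in the mesothelium. Krt19 stood at 1507 and 1418 CPM in the oviduct mesothelium and 1000 and 962 CPM in the uterine mesothelium. In the epithelium it stood at 934, 762, 838 and 759 CPM. The lowest mesothelial library lay just above the highest epithelial one. Krt7 stood at 340, 297, 324 and 274 CPM in the mesothelium and at 195, 151, 263 and 275 CPM in the epithelium, and these ranges overlapped. In the oviduct the mesothelium also had more cells and UMIs than the epithelium. Over all 4 libraries it held 73.5% of the UMIs of both Krt7 and Krt19 in kept cells. In the uterine libraries Krt7 had 550 and 420 mesothelial UMIs, against 372 and 602 epithelial ones. The end of a Krt7 transcript holds a stretch at least 90% identical to the ends of other genes, Ankrd17 and Atxn2 among them, so its counts are less certain. Likewise the end of Krt18 is 91.9% identical to that of Gm5200 over 431 bases, a gene without a row in the matrices used here. Genes annotated on the opposite strand of Krt5, Krt7, Krt8 and Trp63 have no row either, and no source used here says whether strand was used in counting. A processed pseudogene, Gm27005, overlaps Trp63 on the same strand and also has no row, and its part in the Trp63 counts was not tested.

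Krt15, a type I keratin of basal and progenitor cells, was at like levels in both sheets. It stood at 119 and 115 CPM in the oviduct epithelium and at 116 and 118 CPM in the oviduct mesothelium. In the uterus it stood at 33.3 and 43.9 CPM in the epithelium and at 33 and 22.2 CPM in the mesothelium. Its level therefore followed the organ in both sheets, and no library of any other named class exceeded 2.52 CPM. Mesothelial markers stood at 62.2 to 79 CPM in the epithelium and at 1878 to 2058 CPM in the mesothelium, and their part in the epithelial Krt15 level was not tested.

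Krt17, a type I keratin known from skin appendages and stressed or repairing epithelium, stood at 36.8 and 32.7 CPM in the oviduct epithelium and at 352 and 141 CPM in the uterine epithelium. The mesothelium had 41.4 and 45.2 CPM in the oviduct and 27.1 and 30.7 CPM in the uterus. The uterine epithelium stood apart from the other sums. The oviduct epithelium lay between the uterine and the oviduct mesothelium, with no overlap.

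Krt14, the type I partner of Krt5 in basal cells, stood at 41.4 and 40.9 CPM in the oviduct mesothelium and at 83.8 and 93.3 CPM in the uterine mesothelium. The epithelium had 6 and 5 UMIs of Krt14 in the oviduct libraries and 0 in both uterine libraries (0 of 206 cells, which allows a UMI in up to 1.46% of cells of this depth and does not limit the share that expresses the gene). Its mesothelial cells carried other keratins as well: of 375 oviduct cells with a Krt14 UMI, 373 also had Krt19 and 1 had Krt5. In the uterus 59 of 59 such cells had Krt19 and 1 had Krt5. The transcript ends of Krt14 and Krt17 are 95.7% identical over 186 bases, with an exact run of 71 bases, so reads from this stretch may have been assigned to neither or to the wrong gene. The effect on the counts of both genes was not tested. Krt16, the other gene with such an end (91.6% identity to Krt14 over 179 bases), had 4 UMIs in all kept cells.

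Krt5, the type II keratin of basal cells, was rare. Its epithelial UMIs numbered 5 and 12 in oviduct libraries, against 36 and 18 in uterine ones, which is 0.707, 1.38, 25.5 and 8.23 CPM. No other named class exceeded 0.653 CPM in any library. The UMIs came from few cells: 14 of 470 epithelial cells in the oviduct (2.98%, exact 95% interval 1.64 to 4.95%) and 11 of 206 in the uterus (5.34%, 2.7 to 9.35%) had at least 1. Blood endothelium, which should lack Krt5, had it in 0 of 332 oviduct cells and 0 of 432 uterine cells, which allows a UMI in up to 0.904% and 0.694% of cells. Median depths were 8252.5 and 1581 UMIs in the epithelium and 13513.5 and 11288.5 UMIs in the endothelium, and intervals and limits cover counting error only. With each cell thinned to 2000 UMIs the epithelial shares were 0.2% and 1.28%, over 361 and 77 cells, with 109 and 129 shallower cells left out.

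The Krt5 cells were deep cells, with medians of 143804 UMIs in the oviduct and 67190 UMIs in the uterus. In the first uterine library 23 of the 36 UMIs came from 1 cell of 80633 UMIs, which also held 248 of the 498 Krt17 UMIs. In the second uterine library 11 of the 18 UMIs came from the deepest cell, of 263096 UMIs, which also held 76 of the 308 Krt17 UMIs. Without the highest cell of each library, Krt5 stood at 0.442, 1.04, 9.75 and 3.64 CPM, and Krt17 at 29.1, 27.7, 188 and 121 CPM. The uterine libraries were still above the oviduct libraries for both genes. Krt5 and Krt17 shared cells: 10 of the 11 uterine cells with Krt5 had Krt17, against 68 of the other 195, but cells with Krt5 were the deeper ones, and the part of depth in this was not tested. Krt14 was in 0 of those 11 cells and Trp63 in 1.

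**Figure D2:**
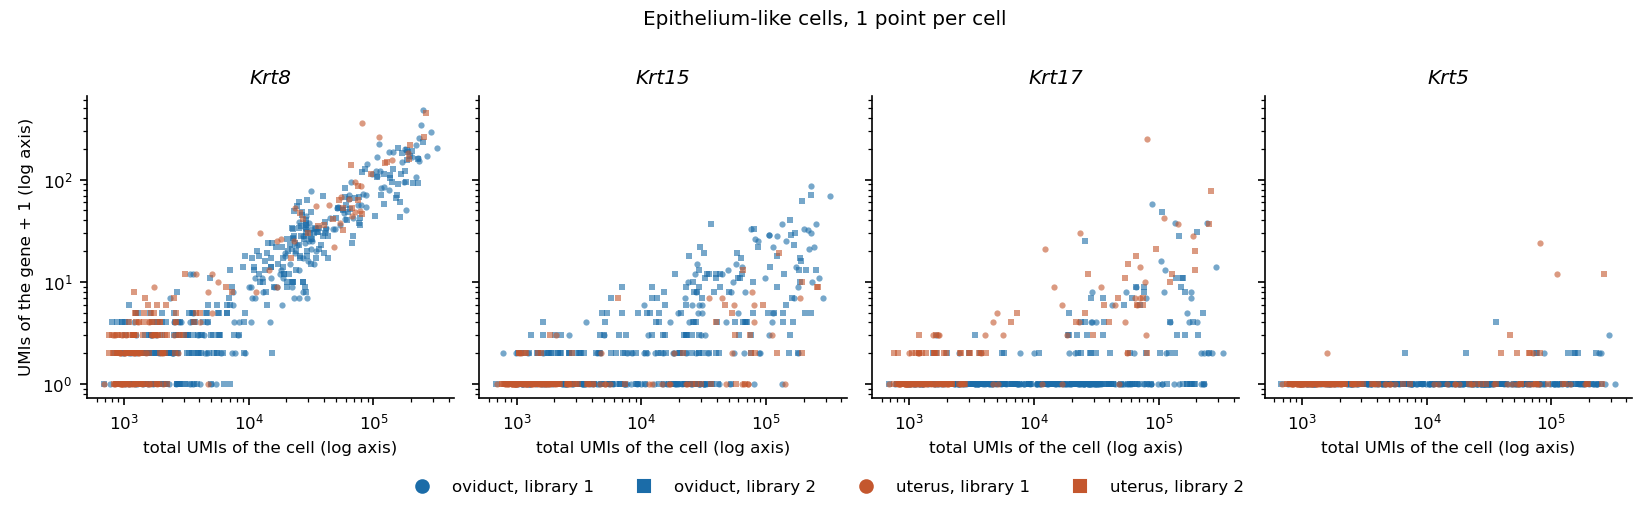
UMIs of Krt8, Krt15, Krt17 and Krt5 (vertical axis, count plus 1, log axis) against the total UMIs of the cell (horizontal axis, log axis) in each epithelium-like cell, by library. Krt8 followed depth in both organs, while the uterine cell with 248 UMIs of Krt17 and 23 of Krt5 lies far above other cells of its depth.

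Krt23, a type I keratin best known from glandular and intestinal epithelium, had 0 UMIs in the epithelium of all 4 libraries, which allows a UMI in up to 0.638% of cells (470 oviduct cells) and 1.46% (206 uterine cells) at their depths, with no limit on the share that expresses the gene. Blood endothelium had 15.1 and 9.04 CPM in the oviduct and 26.6 and 23.3 CPM in the uterus. At least 1 UMI was found in 59 of 332 oviduct endothelial cells (17.8%, exact 95% interval 13.8 to 22.3%) and in 106 of 432 uterine ones (24.5%, 20.5 to 28.9%). The mesothelium, a class of greater median depth, had it in 3 of 1068 and 1 of 147 cells. Free RNA could supply at most 0.062% of these endothelial UMIs in any library.

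Trp63 had 128 UMIs in all kept cells. In the epithelium it had 6 and 2 UMIs in oviduct libraries, against 1 in each uterine one. These epithelial values were too low for the organ test. Mesenchyme had 27 and 24 UMIs in oviduct libraries, against 9 and 8 in uterine ones, or 0.953, 1.32, 0.413 and 0.348 CPM. Smooth muscle had 12 and 14 UMIs in the oviduct libraries and 0 in both uterine libraries, so that the oviduct level was at least 4.64-fold higher, taking 3 UMIs over the uterine group as the floor. With single cells gated by markers, which left 11 oviduct UMIs, the same floor gave at least 2.73-fold, an alternative added after seeing the data. Most smooth muscle cells of the 2 organs lay in different clusters.

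**Figure D3:**
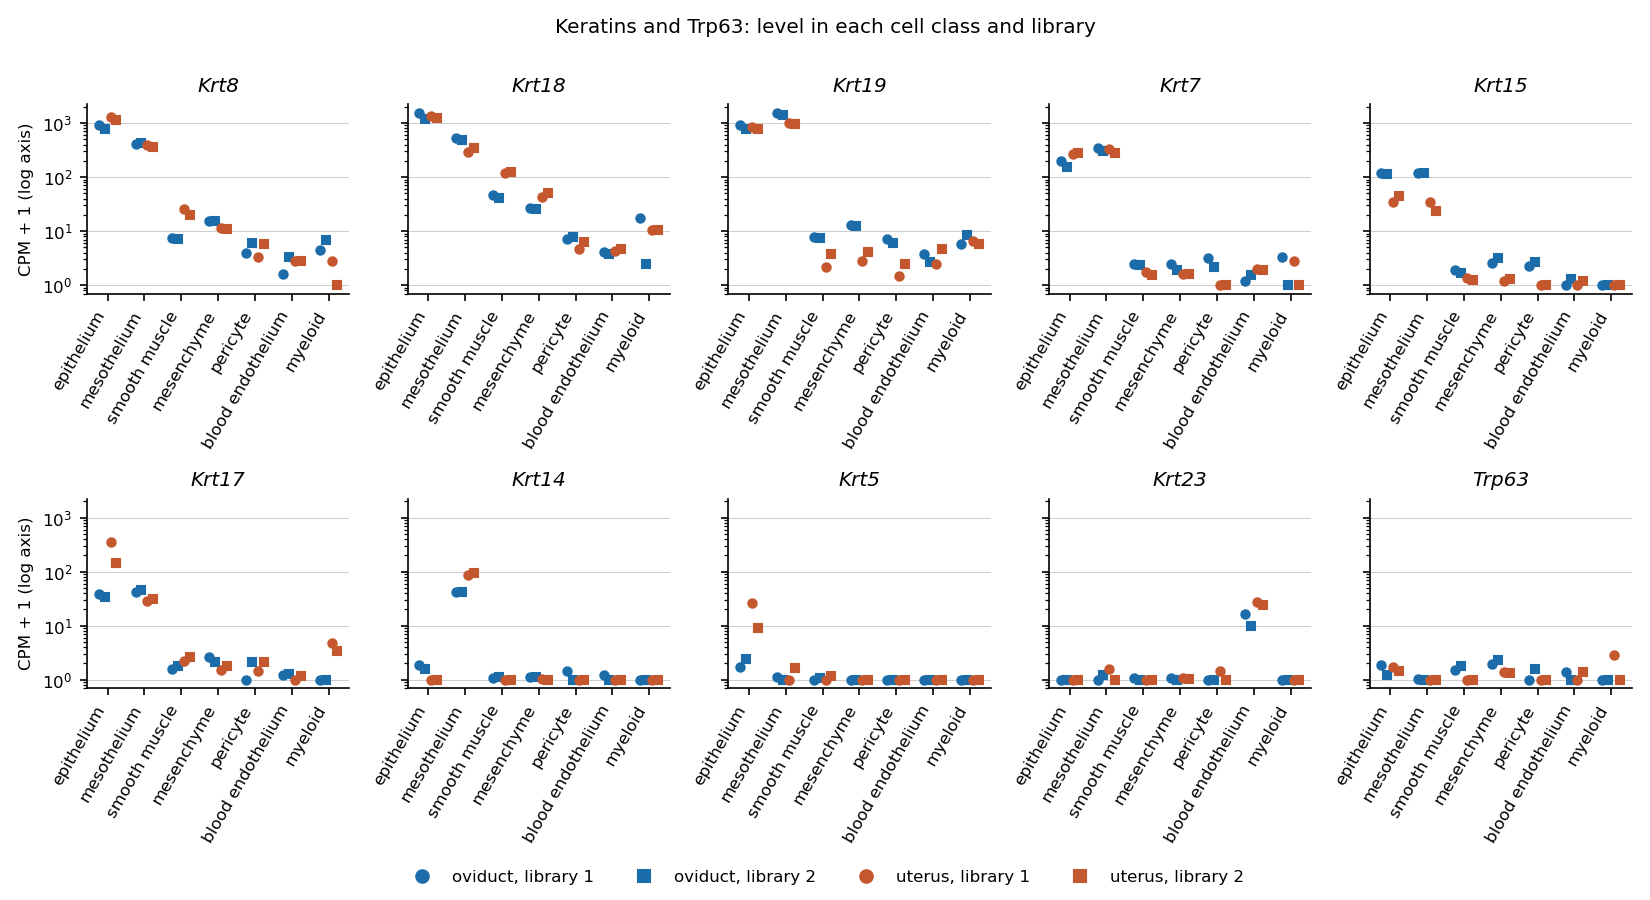
Level of each of the 10 genes (vertical axis, CPM plus 1, log axis) in 7 cell classes (horizontal axis), with 1 point per library. The erythroid class is not drawn, since free RNA could supply 11.8 to 72.1% of its UMIs. Krt15 lies near 118 CPM in both oviduct sheets and between 22.2 and 43.9 CPM in both uterine sheets, and Krt17 is highest in the uterine epithelium.

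Which of the genes differed between the organs within a class was asked next. In the epithelium Krt17 and Krt5 were higher in the uterus and Krt15 was higher in the oviduct, while the simple-epithelial genes Krt8, Krt18 and Krt19 did not pass the test. Of the 10 genes 7 had enough counts to be tested and 4 were called at an adjusted p under 0.05 (edgeR's quasi-likelihood F-test on sums per library, Benjamini-Hochberg over all genes), against 24.3% of all 12151 genes tested. By direction, 1 was higher in the oviduct (background 14.7%) and 3 in the uterus (background 9.53%). Krt5, 1 of these 3, passed the filter on low counts only through the uterus. The median log2 difference of oviduct minus uterus over the 7 was -0.38, and over all tested genes 0.01.

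Krt17 was 34.7 ± 2.86 CPM in the oviduct epithelium and 247 ± 150 CPM in the uterine epithelium (mean ± SD, n = 2 each), a log2 difference of -2.66 ± 0.29 (SE, adjusted p = 3.71e-06). The 2 organs did not overlap. Without the first uterine library, which leaves 1 uterine sample, the difference was -1.92. The share of cells with a Krt17 UMI was 87 of 470 in the oviduct (18.5%, exact 95% interval 15.1 to 22.3%) and 78 of 206 in the uterus (37.9%, 31.2 to 44.9%). At 2000 UMIs per cell these shares were 4.55% and 28.4%. In blood endothelium it was in 2 of 332 and 1 of 432 cells.

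Krt5 differed by -3.71 ± 0.51 (SE, adjusted p = 5.2e-05), from 1.04 ± 0.474 CPM in the oviduct to 16.9 ± 12.2 CPM in the uterus (mean ± SD, n = 2 each). The organs did not overlap, but the uterine level rests on 36 and 18 UMIs. Krt5 passed the filter on low counts only through the uterus, where it was high. The difference was -2.83 without the first uterine library, -4.37 without the second and -4.26 without the second oviduct library. Leaving out the 3 deepest cells of every library, an alternative added after the values had been seen, gave -3.63 (adjusted p = 0.00182).

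Krt15 was 117 ± 2.73 CPM in the oviduct and 38.6 ± 7.52 CPM in the uterus, a log2 difference of 1.71 ± 0.20 (adjusted p = 7.29e-06). Each oviduct library was above each uterine library. Krt15 was in 233 of 470 oviduct cells (49.6%, exact 95% interval 45 to 54.2%) and 39 of 206 uterine cells (18.9%, 13.8 to 25%). Thinned to 2000 UMIs, these shares were 19.6% and 7.78%, and the endothelium had it in 1 of 332 and 1 of 432 cells.

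Krt7 was 1.42-fold higher in the uterine epithelium (log2 difference -0.50 ± 0.18, adjusted p = 0.0497), just inside the threshold. The call was lost in 13 of 17 alternatives, with the replicate number as a block among them (-0.51, adjusted p = 0.174). Krt8 differed by -0.38 (95% interval -0.73 to -0.03, adjusted p = 0.108), Krt18 by 0.22 (-0.14 to 0.59) and Krt19 by 0.23 (-0.13 to 0.58), and none of the 3 passed the test. Scaled by library totals alone, without TMM, Krt8 passed the test (-0.52, adjusted p = 0.0154). It also passed with crossed replicate numbers as a block (-0.38, adjusted p = 0.00609), an alternative added after seeing the data. Scaling without TMM moved the median of all genes to -0.13 and the split of called genes from 1791 toward the oviduct against 1158 toward the uterus to 1458 against 1745.

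Some markers moved with these differences. Smooth muscle markers summed to 33.6 and 48.5 CPM in the oviduct epithelium and 168 and 76.3 CPM in the uterine epithelium, and mesenchyme markers to 138, 94.6, 199 and 171 CPM. Blood endothelium markers summed to 62.1, 48.2, 29.7 and 27.4 CPM and myeloid markers to 6.64, 3.9, 12.7 and 17.4 CPM. Their part in the differences was not tested. Krt17 was at no more than 3.72 CPM in any library of smooth muscle, mesenchyme or the other named classes outside the 2 sheets and the erythroid class. The bound on free RNA was at most 0.473% of the epithelial UMIs of Krt5, Krt15 or Krt17 in any library.

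The epithelium consisted of a deep cluster, with 94, 150, 23 and 22 cells in the 4 libraries, and a shallow one, with 46, 180, 50 and 111 cells. In the deep cluster Krt17 stood at 37, 33.7, 361 and 137 CPM and in the shallow one at 28.1, 16.4, 231 and 180 CPM. Krt15 stood at 119, 112, 31.8 and 40.3 CPM in the deep cluster and at 112, 164, 55 and 84.3 CPM in the shallow one. The order of the organs was thus the same for both genes in both clusters. In the shallow cluster it rests on few UMIs, 5, 8, 21 and 32 of Krt17 and 20, 80, 5 and 15 of Krt15. Cells with a UMI of Foxj1, the regulator of motile cilia, had Krt15 at 132 and 97 CPM in the oviduct, and cells without one at 84.1 and 161 CPM. The 2 oviduct libraries had opposite orders. Krt17 was lower in the oviduct cells with Foxj1 (16.3 and 31.5 CPM) than in those without (91.4 and 35.9 CPM). In the uterus it stood at 587 and 195 CPM in the 9 and 6 cells with Foxj1 and at 206 and 113 CPM in those without. Leaving out the 1 cell with most Krt17 UMIs in each library, added after seeing the data, gave 152 and 144 CPM in the uterine cells with Foxj1, so the order turned in the first uterine library, where that cell held 248 of 318 UMIs. Cells with a Foxj1 UMI were deeper, with medians of 77682.5 and 39627 UMIs against 7674 and 2983 in the oviduct libraries and 71029 and 96654.5 against 1645 and 1415 in the uterine ones, and the part of depth was not tested.

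In the mesothelium Krt14 was higher in the uterus and Krt15, Krt18, Krt19 and Krt17 were higher in the oviduct. Of 7 genes tested 5 were called, against 8.99% of all 13013 genes, and their median difference was 0.59 beside -0.00 over all. By direction, 4 were higher in the oviduct (background 5.33%) and 1 in the uterus (background 3.66%). Krt15 differed by 2.09 ± 0.17 (adjusted p = 5.22e-06). Krt14 differed by -1.09 ± 0.13 (adjusted p = 0.00016), from 41.2 ± 0.389 CPM to 88.5 ± 6.75 CPM. Both genes were separated between the organs in every library.

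**Figure D4:**
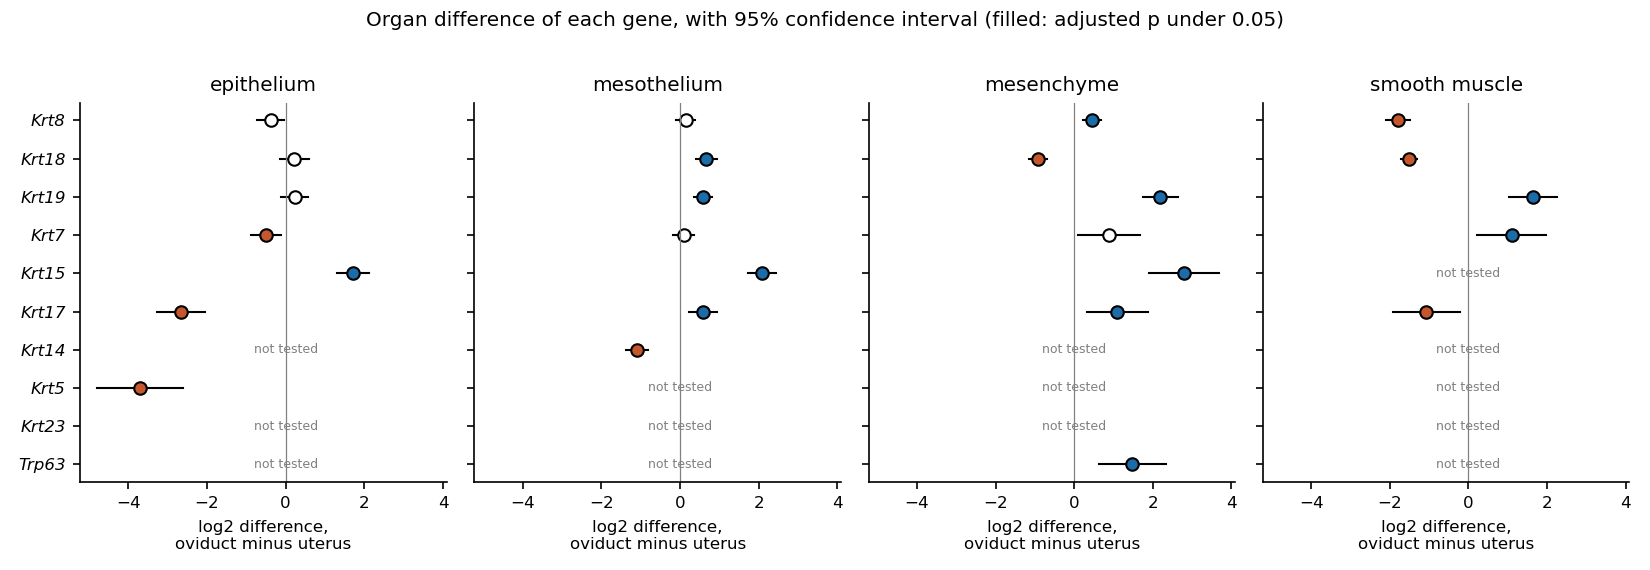
Difference of each gene between the organs (horizontal axis, log2 of oviduct over uterus, with its 95% confidence interval) in 4 classes, 2 libraries per organ. Filled points passed the test. Krt15 is to the right in epithelium, mesothelium and mesenchyme, while Krt17 is at -2.66 in the epithelium and at 0.59 in the mesothelium.

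The uterine level of Krt14 was carried by few cells. The 5 highest cells held 61.3% and 65% of its UMIs in the uterine libraries and 17.3% and 19.5% in the oviduct libraries. The uterine libraries had 84 and 63 mesothelial cells and the oviduct libraries 516 and 552, so 5 cells are a larger part there. Uterine shares were also higher for Krt15 (44.6% and 50% against 11.3% and 10.2%) and Krt19 (27.8% and 27.4% against 7.88% and 5.81%). Without the highest cell of each library Krt14 stood at 39.3, 38.6, 64.4 and 67.5 CPM. Without the 3 deepest cells of each library the difference was -0.74 (adjusted p = 0.00352). Cells with a Krt14 UMI were 375 of 1068 in the oviduct (35.1%, exact 95% interval 32.2 to 38.1%) and 59 of 147 in the uterus (40.1%, 32.1 to 48.5%), at median depths of 16554 and 16575 UMIs. In blood endothelium it was in 1 of 332 and 0 of 432 cells.

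The simple keratins of the mesothelium differed less. Krt18 was 1.59-fold higher in the oviduct (0.67 ± 0.13, adjusted p = 0.00455), and this call was lost without the first uterine library (adjusted p = 0.161). Krt19 was 1.5-fold higher (0.59 ± 0.11, adjusted p = 0.00395), a call lost without the first (0.119) or the second uterine library (0.106). Krt17 differed by 0.59 ± 0.16 (adjusted p = 0.04) and lost the call in 8 of 16 alternatives. Krt7 differed by 0.10 (95% interval -0.17 to 0.37) and Krt8 by 0.15 (-0.09 to 0.39), and neither passed. Markers moved here too: epithelial markers summed to 254 and 224 CPM in the oviduct mesothelium and 156 and 129 CPM in the uterine mesothelium, mesenchyme markers to 7031, 6251, 10704 and 8929 CPM, smooth muscle markers to 695, 643, 1627 and 1467 CPM and blood endothelium markers to 90.8, 92.1, 196 and 194 CPM. Their part in these differences was not tested.

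The organ difference itself was then compared between the sheets, in 1 model of the 8 sums. Krt17 differed by -3.23 ± 0.29 on the log2 scale (epithelium minus mesothelium, adjusted p = 1.63e-06): it was higher in the uterine epithelium and higher in the oviduct mesothelium. Krt15 did not pass (-0.40, 95% interval -0.96 to 0.16), its difference having the same direction in both sheets. Of the 6 genes that were tested in each sheet 3 were called, against 12.1% of all 13365 genes. These were Krt17, Krt7 (-0.63, adjusted p = 0.0251) and Krt8 (-0.56, 0.0316), all with a lower oviduct minus uterus value in the epithelium (background 5.69%). The Krt7 call was lost in 5 and the Krt8 call in 7 of 15 alternatives. Krt14 entered this model through the mesothelium, and its epithelial sums held 11 oviduct UMIs and 0 uterine ones. With 3 UMIs as the floor the lower bound of that ratio was 0.836, so no comparison of the sheets is given for Krt14.

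The counts of the keratin types were also summed. The UMIs of the 6 type I keratins per UMI of the 3 type II keratins were 2.39 and 2.25 in the oviduct epithelium and 1.61 and 1.55 in the uterine epithelium. In the mesothelium they were 2.97 and 2.92 in oviduct libraries, against 2.01 and 2.28 in uterine ones. The oviduct libraries were higher in both sheets. In mesenchyme the ratio was 2.55 and 2.63 in oviduct libraries, against 3.99 and 5.1 in uterine ones, and in smooth muscle it was 6.85 and 6.25 against 4.77 and 6.47. The order was thus reversed in mesenchyme and overlapped in smooth muscle. These are ratios of 3′ UMI counts and not of protein or filaments. Keratins outside the 10 genes did not enter the sums. Among them was Krt10, at 31, 32.7, 33 and 37.9 CPM in mesenchyme, where the type I sum was 40.5, 39.8, 43.9 and 53.2 CPM.

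In mesenchyme, where keratins are low, 6 of 7 tested genes were called, against 36.2% of all 14573 genes, with a median of 1.10 beside -0.00. By direction, 5 were higher in the oviduct (background 19.8%) and 1 in the uterus (background 16.4%). Among the 5 were Krt15 and Trp63, which passed the filter on low counts only through the oviduct. Oviduct mesenchyme lay mainly in clusters 2, 7 and 12 and uterine mesenchyme in clusters 1, 5 and 17, so the organ and the cluster cannot be told apart. Krt18 was higher in the uterus, at 25.3 and 24.7 CPM in the oviduct against 41.3 and 49 CPM (-0.91 ± 0.11, adjusted p = 2.85e-05). Krt19 was higher in the oviduct, at 11.9 and 11.7 CPM against 1.79 and 3.13 CPM (2.19 ± 0.21, adjusted p = 3.82e-06). Both genes were separated by organ in every library. For Krt18 the free RNA bound was 15.6 and 20.9% of the oviduct UMIs and 1.87 and 1.29% of the uterine ones. For Krt19 it was 44.2 and 48.4%, against 21.5 and 10.6%. Mesothelial markers in this class summed to 74.4 and 58.8 CPM in oviduct libraries and 25.3 and 25.1 CPM in uterine ones, and its own markers to 9885, 10536, 4826 and 4581 CPM. Their part in the differences of these genes was not tested.

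With that free RNA subtracted Krt19 differed by 1.54 (adjusted p = 0.000398) and Krt18 by -1.15 (3.54e-06). In clusters with at least 10 cells in every library Krt19 differed by 1.20 (adjusted p = 0.0141) and Krt18 by -1.62 (9.4e-07). Krt15 differed by 2.79 ± 0.41 (adjusted p = 0.000182), from 1.52 and 2.14 CPM to 0.183 and 0.304 CPM. Both Krt15 and Trp63 were tested here only because their higher, oviduct counts passed the filter. Trp63 differed by 1.48 ± 0.39 (adjusted p = 0.0106), and its call was lost with DESeq2 (0.101) and without the second oviduct (0.0691), the first uterine (0.0552) or the second uterine library (0.0742). Krt17 (1.10, adjusted p = 0.0295) lost its call in 6 of 15 alternatives and Krt8 (0.45, 0.00605) in 3 of 16. Krt7 did not pass (0.89, adjusted p = 0.0761).

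Smooth muscle had Krt18 at 46.2 and 40.2 CPM in the oviduct and 116 and 123 CPM in the uterus (-1.51 ± 0.09, adjusted p = 4.46e-08), and Krt8 at 6.53, 6.29, 24.2 and 19.1 CPM (-1.79 ± 0.14, 4.64e-07). The 2 organs were apart for either partner of this filament pair. All 5 genes tested were called, against 43.5% of all 13648 genes, with a median of -1.07 beside -0.00. By direction, 2 were higher in the oviduct (background 22.4%) and 3 in the uterus (background 21.1%). Krt7 passed the filter on low counts only through the oviduct and Krt17 only through the uterus, where each was high. No excess over the background is therefore read from these counts. Oviduct smooth muscle lay mainly in clusters 0 and 8 and uterine smooth muscle in cluster 3. In clusters with at least 10 cells in every library neither the Krt18 nor the Krt8 call held (Krt18 -0.33, adjusted p = 0.6, and Krt8 0.38, 0.823). That fit held only 22 and 36 oviduct cells beside 756 and 696 uterine ones. It called 93 of all 11980 genes tested (0.776%), so it cannot decide whether these differences remain within a cluster. Free RNA could supply at most 9.05% of the Krt18 UMIs of an oviduct library and 2.02% of those of a uterine one.

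Krt19 was higher in oviduct smooth muscle, at 6.65 and 6.35 CPM against 1.19 and 2.84 CPM (1.64 ± 0.28, adjusted p = 0.000479), but up to 83.8% of these UMIs in a library could be free RNA, and with it subtracted the call was lost (1.30, adjusted p = 0.12). It was lost as well in clusters with at least 10 cells in every library (1.36, adjusted p = 0.74), the fit with few oviduct cells. Mesothelial markers in smooth muscle summed to 36.5 and 29.1 CPM in oviduct libraries and 13.3 and 13.8 CPM in uterine ones, and mesenchyme markers to 5567, 5740, 3362 and 3166 CPM. Their part in these differences was not tested. Krt7 (1.10, adjusted p = 0.0412) lost its call in 7 of 11 alternatives. Free RNA could supply up to 86.4% of its UMIs in a library, and with it subtracted Krt7 stood at 0.214 and 1.03 CPM in oviduct libraries, against 0.553 and 0.271 CPM in uterine ones, so that the organs overlapped. The call of Krt17 (-1.07, adjusted p = 0.0425) was lost in 8 of 14.

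In blood endothelium, a class tested after its Krt23 level had been seen, Krt23 was higher in the uterus, by 1.96-fold (-0.97 ± 0.22, adjusted p = 0.0118). It was the 1 gene called of 3 tested, against 3.48% of all 11165 genes called in either direction and 0.77% called higher in the uterus, with a median of -0.21 beside -0.01. The call was lost with DESeq2 (adjusted p = 0.133) and without the second oviduct library (-0.67, 0.143), the library with the lowest Krt23 level. In this class smooth muscle markers summed to 131 and 122 CPM in oviduct libraries, against 53.5 and 58.1 CPM in uterine ones. Mesenchyme markers summed to 154, 126, 73.3 and 104 CPM and epithelial markers to 34.9, 25.7, 15.1 and 15.3 CPM. Their part in the Krt23 difference was not tested.

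Other genes of keratin biology were read from lists. Of 44 other keratins, 40 had at least 1 UMI in kept cells and 9 had at least 100. The most abundant was Krt10, a keratin of differentiating epidermis, with 8989 UMIs and its highest level, 33.6 CPM, in mesenchyme. In the epithelium 9 were tested and 6 called, 3 in each direction, against a background of 24.3% of all genes called in either direction. Krt36 was higher in the oviduct (18.8 and 15.1 CPM against 4.25 and 6.4 CPM, adjusted p = 0.000816), as were Krt12 and Krt4. Krt25 was higher in the uterus (1.13 and 1.03 CPM against 12 and 3.66 CPM, adjusted p = 0.00285), as were Krt79 and Krt90. All 6 were low, with no library above 18.8 CPM. Apart from Krt36, each passed the filter on low counts only through the organ where it was high. No excess over the background is therefore read from the 6 of 9. In the mesothelium 2 were tested and 0 called.

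Of the desmosome and plakin genes, whose proteins anchor keratin filaments, 3 of 13 tested in the epithelium and 4 of 11 in the mesothelium were called, all higher in the oviduct. Over all genes 14.7% were called higher in the oviduct in the epithelium (24.3% in either direction) and 5.33% in the mesothelium (8.99%), so the epithelial count was near its background. Dst, a plakin that links filaments to hemidesmosomes, was 68 ± 12.7 CPM in the oviduct epithelium and 21 ± 2.65 CPM in the uterine one (1.81 ± 0.22, adjusted p = 1.37e-05). Ppl, periplakin, differed by 0.92 in the epithelium and by 1.19 in the mesothelium, and Dsp, desmoplakin, by 1.69 in the mesothelium. The list's median was 0.40 in the epithelium and 0.41 in the mesothelium, beside 0.01 and -0.00 over all genes. Among the called genes, Pkp1 in the epithelium and Dsc2 in the mesothelium passed the filter on low counts only through the oviduct.

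Of 8 hemidesmosome and basal lamina genes tested in the epithelium 3 were called, all higher in the oviduct (background 14.7%), with a median of 0.18 beside 0.01 over all genes. Itga6, the laminin receptor subunit that pairs with Itgb4, stood at 102 and 140 CPM against 29.7 and 23.8 CPM (2.34 ± 0.22, adjusted p = 8.25e-07), and Itgb4 itself differed by 0.66. In the mesothelium 1 of 8 was called (background 8.99%), Itga6 (1.45 ± 0.20, adjusted p = 0.000417).

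Of 20 genes of basal and stratified epithelium 10 were tested in the epithelium and 4 called (background 24.3%), 2 in each direction, with a median of 0.09. Lgals7, a galectin of stratified epithelia, was higher in the oviduct (46.2 and 41.8 CPM against 7.78 and 4.11 CPM, adjusted p = 6.93e-07). In the mesothelium it stood at 691, 740, 211 and 136 CPM, with the same order of the organs, and the part of mesothelial RNA in its epithelial level was not tested. Trp73, the p63 relative needed for multiciliated cells, had 25 and 22 UMIs in the oviduct (3.53 and 2.52 CPM) and 0 in both uterine libraries, so that it passed the filter on low counts through the oviduct. In the mesothelium 2 of 6 were called (background 8.99%), Lgals7 higher in the oviduct (2.05 ± 0.17, adjusted p = 5.4e-06) and Lor higher in the uterus (-2.57). Lor had 8 and 10 UMIs in oviduct libraries (0.406 and 0.765 CPM) and 8 and 3 in uterine ones (4.72 and 1.96 CPM). It passed the filter on low counts only through the uterus.

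Of the epithelial transcription factors 6 of 9 tested in the epithelium were called (background 24.3%), 4 of them higher in the oviduct (background 14.7%), with a median of 0.33. Klf4, Ovol2 and Elf3 were higher in the oviduct, Elf3 at 174 and 178 CPM against 82.8 and 85 CPM (1.21 ± 0.17, adjusted p = 7.37e-05). Grhl3, a driver of barrier formation, was higher in the uterus (-3.32 ± 0.62, adjusted p = 0.000824), as was Elf5 (-1.22). Grhl3 had 6 and 2 UMIs in the oviduct libraries (0.848 and 0.23 CPM) and 9 and 12 in the uterine ones (6.37 and 5.49 CPM). It passed the filter on low counts only through the uterus. Of the signals placed upstream of Trp63 in the lower tract 2 of 4 tested were called (background 24.3%), with a median of 0.08. Bmp4 was higher in the oviduct (10.6 and 13.8 CPM against 4.95 and 6.86 CPM, adjusted p = 0.0197) and Fgfr2 was higher in the uterus (60.9 and 60.1 CPM against 207 and 189 CPM, adjusted p = 3.31e-06). Fgfr2 was also higher in the uterine mesothelium (-2.07 ± 0.22, adjusted p = 4.53e-05). Of 6 other intermediate filament genes tested in the epithelium 3 were called (background 24.3%), with a median of -0.67: Vim (1.26) higher in the oviduct and Lmnb1 (-0.89) and Nes (-0.78) higher in the uterus.

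The last 3 lists were also read in the mesothelium, where the background was 8.99%. Of the transcription factors 2 of 4 tested were called: Klf5 was higher in the uterus (-0.92), and Ovol2 was at 2.23 and 3.9 CPM in the oviduct with 0 in both uterine libraries. Of the signals 2 of 6 were called, Fgfr2 and Fgf10, which was at 2.74 and 3.22 CPM in the oviduct with 0 in both uterine libraries. Ovol2 and Fgf10 passed the filter on low counts through the oviduct. Of 11 other intermediate filament genes 2 were called, Prph (0.88) and Vim (0.53), both higher in the oviduct. In mesenchyme 10 of 12 anchoring genes tested were called (background 36.2%), all toward the oviduct (background 19.8%), and in smooth muscle 7 of 11 (background 43.5%), 5 of them toward the oviduct (background 22.4%). Among the called genes, Pkp2 and Perp in mesenchyme passed the filter on low counts only through the oviduct. So did Dsc2, Dsc3 and Dsg2 in smooth muscle, and no excess over the background is read from these counts. In both classes most cells of the 2 organs lay in different clusters.

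The genes most like each of the 10 over the 32 sums of 8 classes in 4 libraries were ranked by Pearson's r of log2(CPM + 1), given as a description, since sums share libraries and depth. Krt14 was most like Muc16 (0.98), Bnc1 (0.96) and Gjb5 (0.95), and Muc16 is itself a mesothelial marker used for the class. Krt15 was most like Ppl (0.96), Cgn (0.96) and Tfcp2l1 (0.94), and Krt5 like Lce3c (0.94), Wfdc10 (0.93) and Dlx6 (0.93). Among the 3 genes most like Krt17 was Wnt7b (0.93). Krt7 and Krt19 both had Fgf9 first (0.96 each) and Mpzl2 next, and Mpzl2 was first for Krt8 (0.95). Krt18 was most like Patj, Gstt3 and Mgst1 (0.93 each). Krt23 was most like Exoc3l2 (0.98), Cyyr1 (0.97) and Lrrc55 (0.97). For Trp63 the highest r was 0.73 (Wdr61), from few UMIs, and no pattern can be read from it.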

How the data were processed

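RNA of single cells was measured in 4 libraries with 10x Chromium 3′ v3.1 chemistry, per the labels' protocols. The files hold UMI counts per gene and barcode, deposited by the authors without normalization. Cell Ranger 6.0.1 wrote the matrices of called barcodes and Cell Ranger 4 those of all barcodes, per the file headers. Cell Ranger, Seurat 4.2.3 and mm10 are named in the submitters' processing notes. Whether intronic reads were counted is not given in the sources used here. No deposited column of per-sample values was left unused (0). The matrices list 31053 genes, of which 31011 have an identifier in GENCODE M21.

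Barcodes needed at least 500 genes and no more than 15% mitochondrial UMIs, and the highest Scrublet scores were removed at 0.8% per 1000 barcodes (132 to 383 per library), since Scrublet's own threshold marked 0 to 2. The kept cells were clustered with scanpy 1.11.5 and leidenalg 0.10.2 (2000 variable genes without keratins or Trp63, 30 components, 15 neighbours, resolution 1) and the clusters were named from marker lists. Clusters that met no class stayed unnamed. Counts were summed per class and library. Libraries were the replicates, in classes with at least 20 cells in each. CPM is the sum of a gene per 1000000 UMIs of the class, without TMM scaling.

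Sums were tested with edgeR 4.0.16 in R 4.3.3 (TMM, filterByExpr, quasi-likelihood F-test, organ as the term, or library, class and organ by class for the comparison of sheets), 2-sided, with Benjamini-Hochberg adjustment over all genes tested. Differences are oviduct minus uterus. The alternatives used DESeq2 1.42.0, other filters and assignments, and left out each library in turn, where the lone library of an organ was assumed to vary like the others. Checked on simulated data, the test recovered 63.2% of 2-fold and 91.4% of 4-fold differences in epithelium (12151 genes), with 4.72% of calls false, and 59% and 91.7% in mesothelium (13013 genes), with 3.85% false. For the comparison of sheets (13365 genes) it recovered 41.1% and 75.7%, with 5.16% false. The most free RNA a sum could hold was bounded from barcodes of at most 100 UMIs, by the gene with the lowest count in the sum relative to its share of free RNA (keratin, Trp63 and haemoglobin genes left out of this choice).

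The number in a library's label was checked as a pair, since both organs came from the same pools but the labels do not tie a number to a pool. Deviations of same-numbered libraries from their organ means correlated at -0.136 in epithelium, 0.0798 in mesothelium, 0.155 in mesenchyme, 0.176 in smooth muscle and -0.118 in blood endothelium.

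The 10 genes and the lists were chosen with earlier results of these data known. The genes named are these 10, up to 3 called genes per direction of each list with the largest change, and the 3 genes most like each of the 10 among genes with at least 20 CPM in some sum, keratins and predicted genes left out. Some genes that this rule names are not reported here and enter only the counts. Cells of 1 library share their source, so values per cell carry no test. Promoter windows were matched by symbol in a RefSeq table that held 6 of the 10 genes.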

Additional observations from a re-analysis of the deposited data

Results flagged for a closer look

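The organ difference of 3 genes tested in each sheet differed between epithelium and mesothelium by the interaction test (edgeR, 8 sums, adjusted over all genes): Krt17 with an adjusted p of 1.63e-06, Krt7 with 0.0251 and Krt8 with 0.0316. Krt14 also fell under the threshold (adjusted p = 0.0454), but this value says nothing of the epithelium. Krt14 had 11 UMIs in the oviduct epithelium and 0 in the uterine one, was not tested there and lost the call in 8 of 15 alternatives. For Krt17 it was -2.66 in the epithelium and 0.59 in the mesothelium.

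Some genes passed the organ test, with no overlap of the organs, in opposite directions in pairs of classes that were not tested against each other: 3 pairs for Krt17, 2 for Krt18, 1 for Krt7 and 1 for Krt8. For Krt18 the uterus was higher in mesenchyme and smooth muscle and the oviduct in mesothelium. These differences between classes were not tested.

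Krt19 also appeared in data that no comparison used. It stood at 378 CPM in the unnamed cluster 22, at 280 CPM in the unnamed cluster 15 and at 63.7 CPM in the unnamed cluster 10. Cluster 22 (83, 54, 20 and 9 cells) was closest to epithelium in its markers, but none of them were among its 10 leading genes. In barcodes not called as cells Krt19 stood at 279 and 304 CPM in the oviduct libraries and at 59.3 and 63.6 CPM in the uterine ones.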

How the results depend on the processing

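Of 578 values of the 10 genes under alternatives 480 kept direction and side of the threshold, 76 lost the call, 12 gained it and 10 changed sign. Some alternatives repeated the main fit on the same cells, and their values are counted among the 480. These were clusters with at least 10 cells in every library, in epithelium, mesothelium, blood endothelium and the comparison of sheets. Resolution 2 in blood endothelium was another. Of 180 levels by class 151 moved by less than 1 SD of the libraries. In epithelium DESeq2 called 1690 genes where edgeR called 2949, and leaving out each library called 1918 (without oviduct library 2) to 2682. In mesothelium (1170 genes, 5 of the 10) DESeq2 called 760 genes, and leaving out each library called 552 to 932 genes and 2 to 4 of the 10 (552 and 2 without uterus library 1, 775 and 3 without uterus library 2). In mesenchyme (6 of the 10) clusters with at least 10 cells in every library called 2. In smooth muscle (5936 genes, 5 of the 10) such clusters called 93 genes and 0 of the 10, resolution 2 called 3900 and 3, and DESeq2, free RNA subtracted and doublets kept called 3 each. With any library left out, Krt7 and Krt17 lost their calls there, while Krt8, Krt18 and Krt19 kept theirs. In blood endothelium (388 genes, 1 of the 10) DESeq2 called 162 and 0, and leaving out each library 0 to 1. For the comparison of sheets (1619 genes, 4 of the 10, Krt14 included) DESeq2 called 828 and 1, gating single cells 1, leaving out the 3 deepest cells (added after seeing the data) 2, and leaving out each library 1031 (without uterus library 2) to 1359 genes and 1 (without oviduct library 1) to 3. Without TMM its split moved from 859 and 760 to 733 and 1108. The cause of these shifts was not tested, except that fewer cells or libraries entered some.

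Signs changed for Krt7 in mesothelium without uterus library 2 (-0.0029), Krt7 in mesenchyme with free RNA subtracted (-1.66), Krt8 in smooth muscle in clusters of all libraries (0.38) and Krt17 in smooth muscle with doublets kept (0.23). They changed for Krt19 in blood endothelium gated by single cells (0.18) and with a library left out (-0.68 to 0.67), and between the sheets with a library left out for Krt5 (-6.78 to 0.20) and Krt15 (-0.95 to 0.11). With a library left out Krt7 in mesothelium ranged up to 0.23. Of these only the 2 values of smooth muscle were called in the main comparison.

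With the replicate number as a block, epithelium had 2455 called genes, and Krt7 there was the 1 call of the 10 genes that was lost (-0.51, adjusted p = 0.174). With the numbers crossed, an alternative added after seeing the data, it had 3954, and blood endothelium 509 against 387 with the block. In smooth muscle, clustering with keratins kept was not run, as it left 1 uterine cell per library. Depth limits what can be said of Krt5, Krt14, Krt23 and Trp63 in the shallow epithelial cells.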
